A study of Sus scrofa with 72 samples.

Results

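The respiratory chain of the inner mitochondrial membrane passes electrons from NADH and succinate to oxygen, and ATP synthase uses the proton gradient this builds up. Complex I takes electrons from NADH, complex II from succinate, complex III passes them from ubiquinone to cytochrome c, complex IV reduces oxygen, and complex V is ATP synthase. Most subunits are encoded in the nucleus and joined to a few encoded in mitochondrial DNA. White fat cells use the chain while they take up and store lipid, and brown fat cells hold large amounts of it.

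The genes described here are those whose symbol on the array starts with NDUFA, NDUFB, NDUFC, NDUFS, NDUFV, SDH, UQCR, COX4 to COX8 or ATP5. This rule took 59 of the 13755 named genes, through 94 of 47845 probe sets, and the probe set with the highest mean stands for its gene. The symbols also cover genes that are not subunits: 4 complex I assembly factors, ATP5S and ATP5SL, and NDUFA4L2, a paralog of NDUFA4. The probe set named COX7C carries the name of a different gene in the study's own annotation, so it is left out of all counts and given at the end, which leaves 58 genes. Of these, 54 passed the level filter, a value above the median of the array on at least 8 of the 72 arrays. NDUFA4, NDUFB10, ATP5H and ATP5O did not pass, and NDUFA4 and ATP5H lay under the background controls' mean on all 72 arrays. The 54 tested genes had a median log2 intensity of 7.42, against 5.57 over all 27187 tested probe sets.

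Synovial mesenchymal stem cells (SMSCs) of 2 pig breeds were cultured in adipogenic induction medium (AIM, a kit that drives cells towards fat cells) for 1, 4, 7 and 14 days, or in complete culture medium (CCM, high glucose DMEM with fetal bovine serum) for 0, 1, 4, 7 and 14 days, and hybridized to 72 porcine Snowball arrays. The breeds were Angeln Saddleback (AS), known for fat deposition, and German Landrace (DL), known for growth, and the tissues were adipose synovium of the infrapatellar fat pad (FP) and fibrous synovium of the joint capsule (FS). Each of the 4 pools of breed and tissue held passage 3 cells of 3 male piglets aged 59 days, and each of the 36 groups was 2 cultures of 1 pool. The FP and FS pools of a breed came from the same 3 piglets. Since animals were pooled, the p-values rest on how far cultures from 1 pool differed, and hold no spread between animals.

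The rule leaves out 4 arrays, so that 4 groups had 1 array. The AS FP day 7 arrays of replicate 2 had a median correlation with the other arrays of their tissue, medium and day of -0.46 in AIM and -0.51 in CCM, and the DL FP day 0 and DL FS CCM day 1 arrays of replicate 2 had 0.33 and 0.21. The 68 arrays in use had 0.42 to 0.79. The left-out AIM array also had a low adiponectin level (6.14) and the left-out CCM array a high one (13.2). All 8 fat cell markers (ADIPOQ, FABP4, PLIN1, LIPE, CIDEC, PPARG, LPL and DGAT2) were higher in AIM on days 4, 7 and 14, with a mean level per array of 10.6 to 11.4 in AIM and 5.88 to 7.85 in CCM on day 14. Of the stromal markers THY1 was lower in AIM on day 14 by a log2 difference of -2.20 ± 0.08 (SE) and COL3A1 higher (0.39 ± 0.07), CD14 of the macrophage list was higher (0.96 ± 0.11), and the stromal marker NT5E, the macrophage markers CD163 and MRC1, the endothelial markers KDR and TEK and the muscle markers MYH1 and MYLPF were below the background controls on all AIM day 14 arrays. Of the muscle and pericyte lists CKM was higher (0.33 ± 0.10) and CSPG4 lower (-0.84 ± 0.09), and none of the 3 tested endothelial genes passed. In such whole cultures, more cells of a type and more RNA per cell cannot be told apart, and the part of these marker differences in the results below was not tested.

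The first question was how the genes of the chain differed between AIM and CCM on the same day. From day 4 on, most genes that passed the test were higher in AIM, and their number was larger on each later day. A gene passed at a Benjamini-Hochberg adjusted p under 0.01 in limma over all tested probe sets, and differences are AIM minus CCM in log2 intensity. On day 1, 5 of 54 genes were higher and 3 lower, against 8.60% and 13.1% of all tested probe sets, and the median difference of the 54 was 0.02. On day 4, 19 were higher and 4 lower, against 16.3% and 23.3%, with a median of 0.16. On day 7, 26 were higher and 1 lower, against 13.5% and 20.9%, with a median of 0.22. On day 14, 32 were higher and 2 lower, against 17.1% and 21.4%, with a median of 0.24. The 32 genes are 59.3% of those tested, and the 2 lower genes are 3.70%. The median over all tested probe sets lay between -0.02 and 0.02 on the 4 days. All 32 genes were higher in each of the 4 pools on day 14, as were all 19 on day 4 and 23 of 26 on day 7. The tested difference averages these same 4 pools, so this is no separate test. The share among all passing probe sets was not compared. When all 72 arrays were fitted as labelled, 9 genes were higher on day 7. On day 1 the 5 higher genes were 2 without AS FS replicate 1, AS FS replicate 2 or DL FP replicate 1, 3 without AS FP replicate 1, DL FP replicate 2 or DL FS replicate 2, and 4 without AS FP replicate 2.

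**Figure D1:**
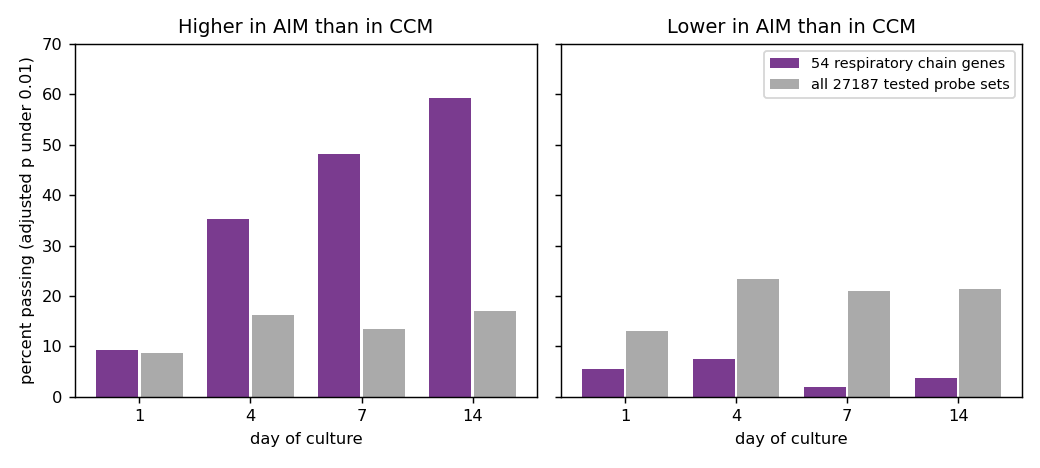
Percent of the 54 respiratory chain genes (purple) and of all 27187 tested probe sets (grey) that passed at an adjusted p under 0.01, by day of culture, for genes higher (left) and lower (right) in AIM than in CCM. The share of higher genes was 9.26% on day 1 and 59.3% on day 14, while that of all tested probe sets was 8.60% and 17.1%.

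The differences were small for single genes, and the same genes made up much of each later count. Of the 54 genes, 24 were higher on both day 7 and day 14, and 15 of them on day 4 as well. The share of all tested probe sets that passed on several days was not compared. NDUFC2, NDUFAF1 and NDUFAF3 were higher on all 4 days and NDUFAF2 was lower on all 4. Another 6 genes, ATP5G1, COX6A1, NDUFA8, NDUFAF4, NDUFB2 and NDUFS1, passed on day 14 and on no other day. With the probe set that stands for the gene, 13 genes passed on no day, among them SDHD, ATP5F1 and NDUFC1. Of these 13, 7 had further tested probe sets, and for 4 of them another one passed on at least 1 day: as higher in AIM for ATP5E (days 4, 7 and 14), NDUFS7 (days 7 and 14) and SDHB (day 4), and as lower for NDUFB8 (day 4). NDUFA4L2 was the one gene that passed in both directions, lower on day 4 and higher on day 14.

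**Figure D2:**
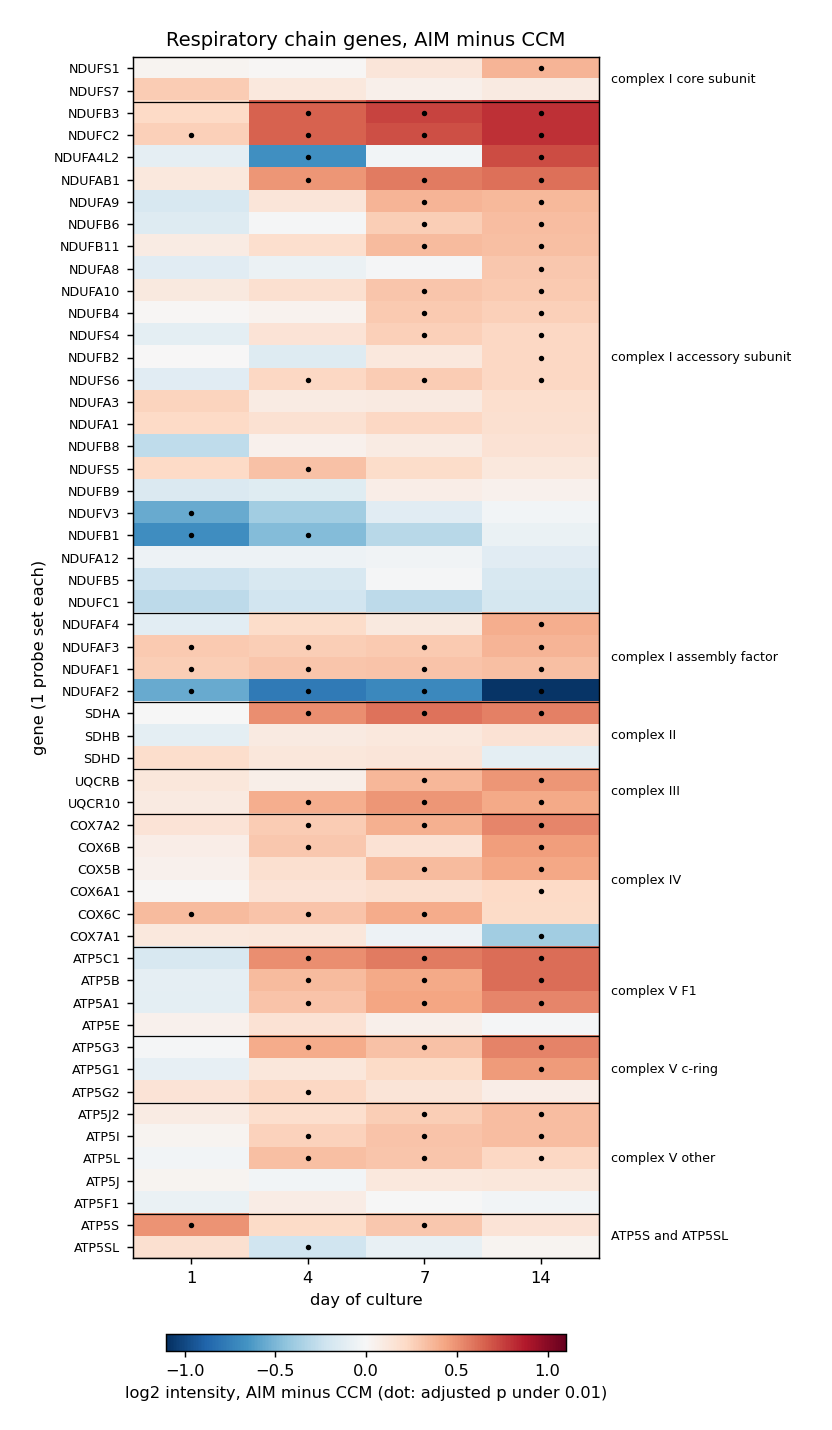
Difference in log2 intensity, AIM minus CCM, of 54 genes in rows grouped by complex or role (NDUFA4L2 by its symbol), on days 1, 4, 7 and 14 in columns (red: higher in AIM, blue: lower, dot: adjusted p under 0.01). Dots were few on day 1 and covered 34 genes on day 14, with NDUFB3 and NDUFC2 at 0.81 and 0.80 and NDUFAF2 at -1.07.

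Complex I was measured by 24 subunits, without NDUFA4L2, 2 of its core and 22 accessory ones, which lie around the core and hold no redox centres of the main path. In AIM 1 of the 24 was higher and 2 were lower on day 1, against 8.60% and 13.1% of all tested probe sets. On day 4, 5 were higher and 1 was lower, against 16.3% and 23.3%. The higher genes were 10 on day 7 and 13 on day 14, against 13.5% and 17.1%. None was lower on either day, against 20.9% and 21.4%. NDUFB3, an accessory subunit of the membrane arm, had a lowest, median and highest level of 8.03, 8.39 and 8.77 on the 8 AIM arrays of day 14, against 7.19, 7.61 and 7.83 on the 8 CCM arrays. The groups did not overlap, and the difference was 0.81 ± 0.10 (SE; 1.75-fold, adjusted p = 3.85e-09 in limma). NDUFC2, another membrane arm subunit, had 8.57, 8.99 and 9.21 in AIM against 7.95, 8.14 and 8.31 in CCM. These groups did not overlap either, and the difference was 0.80 ± 0.07 (adjusted p = 7.42e-13). NDUFAB1, the mitochondrial acyl carrier protein that is also a subunit of complex I, had 7.29, 7.56 and 7.76 in AIM and 6.87, 6.99 and 7.02 in CCM, with no overlap and a difference of 0.61 ± 0.07 (adjusted p = 5.79e-10). Of the core subunits, NDUFS1, which carries iron-sulfur clusters, had 7.53, 7.70 and 7.86 in AIM against 7.15, 7.32 and 7.47 in CCM on day 14 and passed there with 0.37 ± 0.08 (adjusted p = 0.000188). NDUFS7 had a difference of 0.10 ± 0.09 on that day and did not pass, while its 2 further tested probe sets were at 0.15 and 0.43, of which 1 passed as higher, as 1 did on day 7.

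On day 1, 2 complex I subunits passed as lower in AIM than in CCM, and neither passed as lower in AIM than on day 0. NDUFB1, a small membrane arm subunit, had 8.43, 8.69 and 8.76 on the 8 AIM arrays of day 1 against 9.21, 9.30 and 9.60 on the 7 CCM arrays. The groups did not overlap, and the difference was -0.68 ± 0.09 (adjusted p = 2.03e-07). It was -0.47 ± 0.09 on day 4, where it also passed, -0.30 ± 0.10 on day 7 and -0.07 ± 0.09 on day 14. NDUFV3, an accessory subunit of the NADH-binding part, had 7.50, 7.98 and 8.40 in AIM and 8.12, 8.53 and 8.79 in CCM on day 1. The groups overlapped, with a difference of -0.56 ± 0.14 (adjusted p = 0.00188), and its other probe set passed in the same direction (-0.43). Against day 0, NDUFB1 was at 0.07 ± 0.09 in AIM and 0.75 ± 0.10 in CCM on day 1, of which the CCM value passed, and NDUFV3 was at -0.15 ± 0.14 in AIM and 0.41 ± 0.15 in CCM, of which neither passed. Neither gene passed between the media on day 14, where NDUFV3 had a difference of -0.03 ± 0.13.

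The 4 assembly factors, which help to build complex I and are not part of it, went in opposite directions. NDUFAF2 had 3.86, 4.32 and 4.76 on the AIM arrays of day 14 and 4.80, 5.47 and 5.65 on the CCM arrays. The groups did not overlap, and its difference of -1.07 ± 0.11 (adjusted p = 1.41e-10) was the largest of all 54 genes in either direction on that day. It was -0.55 ± 0.12 on day 1, -0.78 ± 0.11 on day 4 and -0.71 ± 0.12 on day 7. NDUFAF3 had 7.43, 7.72 and 7.81 in AIM on day 14 against 7.20, 7.28 and 7.50 in CCM, which overlapped, with a difference of 0.38 ± 0.07 (adjusted p = 2.42e-05). NDUFAF1 passed with differences of 0.27, 0.30, 0.31 and 0.33 on days 1, 4, 7 and 14, and NDUFAF4 on day 14 alone, with 0.40 ± 0.10.

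Complex II, which is also the succinate dehydrogenase of the citrate cycle, was measured by 3 subunits, of which SDHA passed as higher in AIM. SDHA, the flavoprotein that binds succinate, had 8.97, 9.19 and 9.48 on the AIM arrays of day 14 against 8.33, 8.62 and 8.91 on the CCM arrays. The groups did not overlap, and the difference was 0.56 ± 0.07 (adjusted p = 4.85e-09). All 3 further probe sets of SDHA passed in the same direction on days 4, 7 and 14, with differences of 0.48 to 0.69. SDHB, the iron-sulfur subunit, had 8.48, 8.94 and 9.21 in AIM and 8.50, 8.71 and 8.98 in CCM on day 14, which overlapped, and its difference of 0.16 ± 0.08 did not pass (adjusted p = 0.0821). Its 5 further tested probe sets lay between -0.50 and 0.12 on that day and none passed, while 1 passed as higher on day 4. SDHD, a membrane anchor, had a difference of -0.10 ± 0.07 (adjusted p = 0.210).

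Both measured subunits of complex III were higher in AIM on days 7 and 14. UQCRB, which binds near the ubiquinone site, had 7.50, 7.85 and 8.06 in AIM on day 14 and 7.16, 7.36 and 7.49 in CCM, with no overlap and a difference of 0.48 ± 0.07 (adjusted p = 6.23e-07). It was 0.06 ± 0.07 on day 4 and 0.37 ± 0.08 on day 7. UQCR10, a small accessory subunit, had 6.90, 7.10 and 7.21 in AIM against 6.29, 6.68 and 6.86 in CCM on day 14. It did not overlap either, with a difference of 0.41 ± 0.09 (adjusted p = 0.000103), and it had passed from day 4 on.

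Complex IV was measured by 6 subunits, of which 4 were higher and 1 lower in AIM on day 14, against 17.1% and 21.4% of all tested probe sets. The lower one was a tissue-specific isoform. COX7A1 is the isoform of heart and skeletal muscle, also found in brown fat, and COX7A2 is its counterpart in most other tissues. COX7A1 had 5.40, 5.59 and 6.00 on the AIM arrays of day 14 and 5.86, 5.99 and 6.28 on the CCM arrays. The groups overlapped, and the difference was -0.39 ± 0.09 (adjusted p = 0.000284), while on days 1, 4 and 7 it was 0.12 ± 0.09, 0.12 ± 0.09 and -0.05 ± 0.10 and did not pass. COX7A2 had 8.32, 8.44 and 8.57 in AIM and 7.70, 7.92 and 8.04 in CCM on day 14, with no overlap and a difference of 0.54 ± 0.08 (adjusted p = 1.06e-06). Each gene had 1 further probe set, which did not pass the level filter and was not tested by itself. Averaged over both probe sets, neither gene passed on day 14 (-0.25 for COX7A1 and 0.18 for COX7A2). COX6B and COX5B were higher by 0.46 ± 0.07 and 0.42 ± 0.09 on day 14, while the other tested probe set of COX5B was at -0.04. COX6C was highest against CCM on day 7, with 9.12, 9.36 and 9.66 on the 7 AIM arrays and 8.76, 8.98 and 9.12 on the 7 CCM arrays, which did not overlap, and a difference of 0.41 ± 0.09 (adjusted p = 0.000218), and was at 0.21 ± 0.08 on day 14, which did not pass. COX6A1, the isoform outside muscle, had 9.48, 9.61 and 9.86 in AIM and 9.29, 9.43 and 9.58 in CCM on day 14, which overlapped, with a difference of 0.22 ± 0.06 (adjusted p = 0.00109).

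**Figure D3:**
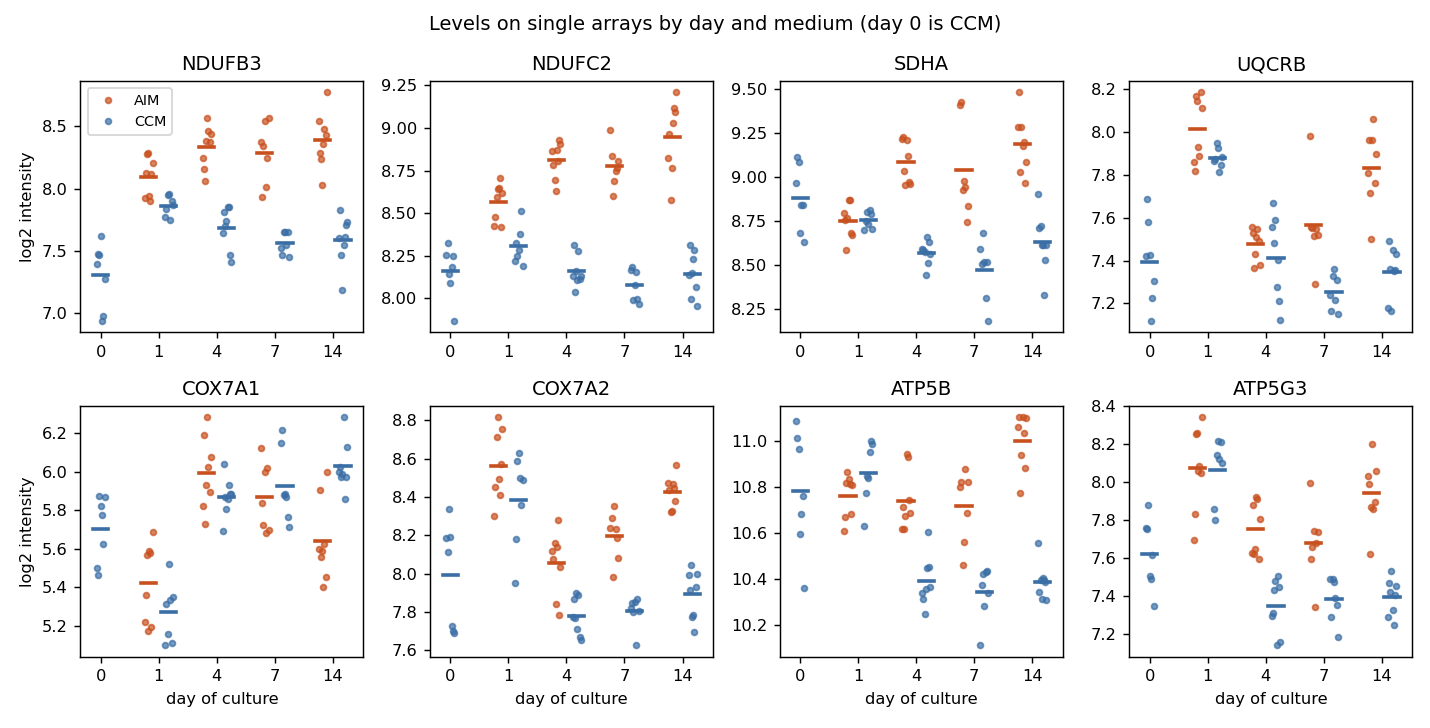
Log2 intensity of 8 genes on single arrays (points) with the mean (bar) by day of culture in AIM (orange) and CCM (blue), where day 0 is CCM. On day 14 all AIM arrays lay above all CCM arrays of that day for NDUFB3, NDUFC2, SDHA, UQCRB, COX7A2, ATP5B and ATP5G3, and the difference of COX7A1 was -0.39.

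Of the 12 complex V subunits tested, none passed on day 1, 7 were higher in AIM on day 4, 7 on day 7 and 8 on day 14, and none was lower on any day. Of all tested probe sets, 8.60%, 16.3%, 13.5% and 17.1% were higher on days 1, 4, 7 and 14. The shares that were lower on these days were 13.1%, 23.3%, 20.9% and 21.4%. In the catalytic F1 head the alpha, beta and gamma subunits were higher from day 4 on, and the probe sets of the epsilon subunit differed among themselves. ATP5B, the catalytic beta subunit, had 10.8, 11.0 and 11.1 on the AIM arrays of day 14 and 10.3, 10.4 and 10.6 on the CCM arrays, with no overlap and a difference of 0.61 ± 0.07 (adjusted p = 8.07e-10). ATP5A1, the alpha subunit, had 10.2, 10.4 and 10.6 in AIM against 9.83, 9.88 and 9.95 in CCM, with no overlap and a difference of 0.54 ± 0.07 (adjusted p = 1.11e-07). ATP5C1, the gamma subunit of the rotating stalk, had 8.78, 8.91 and 8.97 in AIM and 8.16, 8.28 and 8.39 in CCM, again apart, with 0.62 ± 0.05 (adjusted p = 1.79e-12). Of its 2 further tested probe sets, 1 passed in the same direction on day 4 and on day 14, and none on day 7. ATP5E, the epsilon subunit, had 6.93, 7.07 and 7.29 in AIM against 6.84, 7.14 and 7.25 in CCM and did not pass with this probe set (-0.01 ± 0.06, adjusted p = 0.881). Its 2 further tested probe sets were at 0.34 and 0.35 on day 14, and 1 of them passed as higher in AIM, as 1 did on day 4 and on day 7. In the membrane part ATP5I (subunit e) and ATP5J2 (subunit f) were both higher by 0.34 on day 14.

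ATP5G1, ATP5G2 and ATP5G3 encode the same mature c subunit of the membrane ring with different import sequences, and they differed in when they passed. ATP5G3 had 7.62, 7.94 and 8.20 in AIM and 7.25, 7.41 and 7.53 in CCM on day 14, with no overlap and a difference of 0.55 ± 0.07 (adjusted p = 5.59e-08), and it passed from day 4 on. ATP5G1 had 8.68, 8.79 and 8.94 in AIM and 8.22, 8.29 and 8.53 in CCM on day 14, with no overlap and a difference of 0.47 ± 0.08 (adjusted p = 3.15e-06), and was at 0.12 ± 0.08 on day 4 and 0.21 ± 0.09 on day 7. ATP5G2 passed on day 4 alone (0.23 ± 0.05, adjusted p = 0.000452), and on day 14 it had 10.3, 10.4 and 10.6 in AIM against 10.2, 10.3 and 10.4 in CCM, a difference of 0.07 ± 0.05. Differences between the 3 genes were not tested. ATP5S, the coupling factor B, was higher in AIM on day 1, with 5.57, 6.01 and 6.14 against 5.17, 5.48 and 5.78 in CCM, which overlapped, and a difference of 0.50 ± 0.09 (adjusted p = 2.39e-05). It passed again on day 7, with 0.30 ± 0.09 (adjusted p = 0.00823), and was higher there in 3 of the 4 pools. ATP5SL, known in human cells as a factor for the distal membrane arm of complex I, was lower on day 4 (-0.22 ± 0.06, adjusted p = 0.00344).

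The difference between the media changed between day 1 and day 4 for 11 genes. This change of the AIM minus CCM difference over these days passed for 10 genes upwards, against 9.85% of all tested probe sets, and for 1 gene downwards, against 13.8%. ATP5C1 changed most, by 0.68 ± 0.08 (adjusted p = 4.36e-09 in limma), since it was -0.17 ± 0.06 on day 1 and 0.51 ± 0.05 on day 4. SDHA followed with 0.52 ± 0.10, ATP5B with 0.45 ± 0.10, ATP5A1 with 0.42 ± 0.11 and ATP5G3 with 0.41 ± 0.11. NDUFC2, NDUFAB1, ATP5L, NDUFS6 and NDUFA9 had 0.39, 0.37, 0.36, 0.35 and 0.30, and ATP5SL fell by 0.39. No gene passed for day 7 minus day 4 or for day 14 minus day 7, where 1.56% and 1.45% of all tested probe sets did. Of the 162 gene values of the 3 comparisons, 35 had an unadjusted p under 0.05. The share of all tested probe sets at that limit was not compared. The 11 genes were 5 without AS FP replicate 2, AS FS replicate 2 or DL FS replicate 2, and 4 without DL FP replicate 2 or with all 72 arrays as labelled.

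Both media were then set against day 0, the cells before induction, which the following comparisons share. The day 0 arrays of replicate 1 had a median over the tested genes of 7.39 (AS FP), 7.42 (AS FS), 7.46 (DL FP) and 7.42 (DL FS). Those of replicate 2 had 7.12 (AS FP), 7.18 (AS FS) and 7.29 (DL FS). The part of this replicate difference in the comparisons with day 0 was not tested. In AIM, 21 genes were higher and 3 lower on day 1 (14.6% and 16.0% of all tested probe sets), 16 and 6 on day 4 (18.6% and 25.6%). Day 7 had 15 and 4 such genes (16.3% and 25.7%), and day 14 had 28 and 3 (17.4% and 23.8%). In CCM, 17 were higher and 2 lower on day 1 (13.3% and 12.0%), and 3 and 4 on day 4 (7.96% and 9.85%). Day 7 had 0 and 7 (7.21% and 10.8%), and day 14 had 7 and 6 (11.3% and 13.2%). On day 1 many genes were above day 0 in either medium. ATP5G1 was higher by 0.69 ± 0.08 in AIM and by 0.78 ± 0.09 in CCM on that day, and NDUFAF4 by 0.65 ± 0.10 and 0.77 ± 0.11. In CCM the 19 passing genes of day 1 were 11 without AS FS replicate 2, and 6 with all 72 arrays as labelled. The 7 of day 4 were 4 without AS FP replicate 1, AS FS replicate 1 or DL FP replicate 2, the 7 of day 7 were 4 without AS FS replicate 1 or DL FS replicate 1, and the 13 of day 14 were 7 without AS FP replicate 1 or AS FS replicate 1 and 8 without DL FP replicate 2 or DL FS replicate 1.

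Later, genes reached their distance between the media from different sides. Of the 32 genes higher in AIM than in CCM on day 14, 19 were above day 0 in AIM and not below it in CCM. Another 2 were below day 0 in CCM and not above it in AIM, 2 were both, and 9 were neither. The same split over all tested probe sets was not made. NDUFB3 averaged 8.39 ± 0.22 in AIM (SD, n = 8) and 7.59 ± 0.20 in CCM (n = 8) on day 14 and 7.31 ± 0.26 on day 0 (n = 7), and was above day 0 by 1.06 ± 0.10 (SE) in AIM and 0.26 ± 0.10 in CCM, of which the AIM value passed. NDUFC2 was at 0.79 ± 0.07 in AIM and -0.02 ± 0.07 in CCM, NDUFAB1 at 0.57 ± 0.07 and -0.04 ± 0.07, and UQCR10 at 0.59 ± 0.09 and 0.17 ± 0.09, each passing in AIM alone. ATP5B averaged 11.0 ± 0.12 in AIM (SD, n = 8) and 10.4 ± 0.08 in CCM (n = 8) on day 14 and 10.8 ± 0.26 on day 0 (n = 7). On the day 0 arrays ATP5B had 11.1, 11.0, 11.0 and 10.6 in replicate 1 and 10.7, 10.8 and 10.4 in replicate 2. Its difference from day 0 was 0.20 ± 0.07 in AIM, which did not pass, and -0.42 ± 0.07 in CCM, which did (adjusted p = 1.30e-05 in limma). ATP5A1 had 0.18 ± 0.08 in AIM and -0.35 ± 0.08 in CCM, of which the CCM value passed. SDHA and ATP5G3 passed on both sides, with 0.28 ± 0.07 and 0.29 ± 0.08 in AIM and -0.27 ± 0.07 and -0.26 ± 0.08 in CCM. COX7A1 was at -0.08 ± 0.09 in AIM and rose above day 0 in CCM (0.30 ± 0.09, adjusted p = 0.00962), and NDUFAF2 fell in AIM (-0.69 ± 0.12) and rose in CCM (0.39 ± 0.12).

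**Figure D4:**
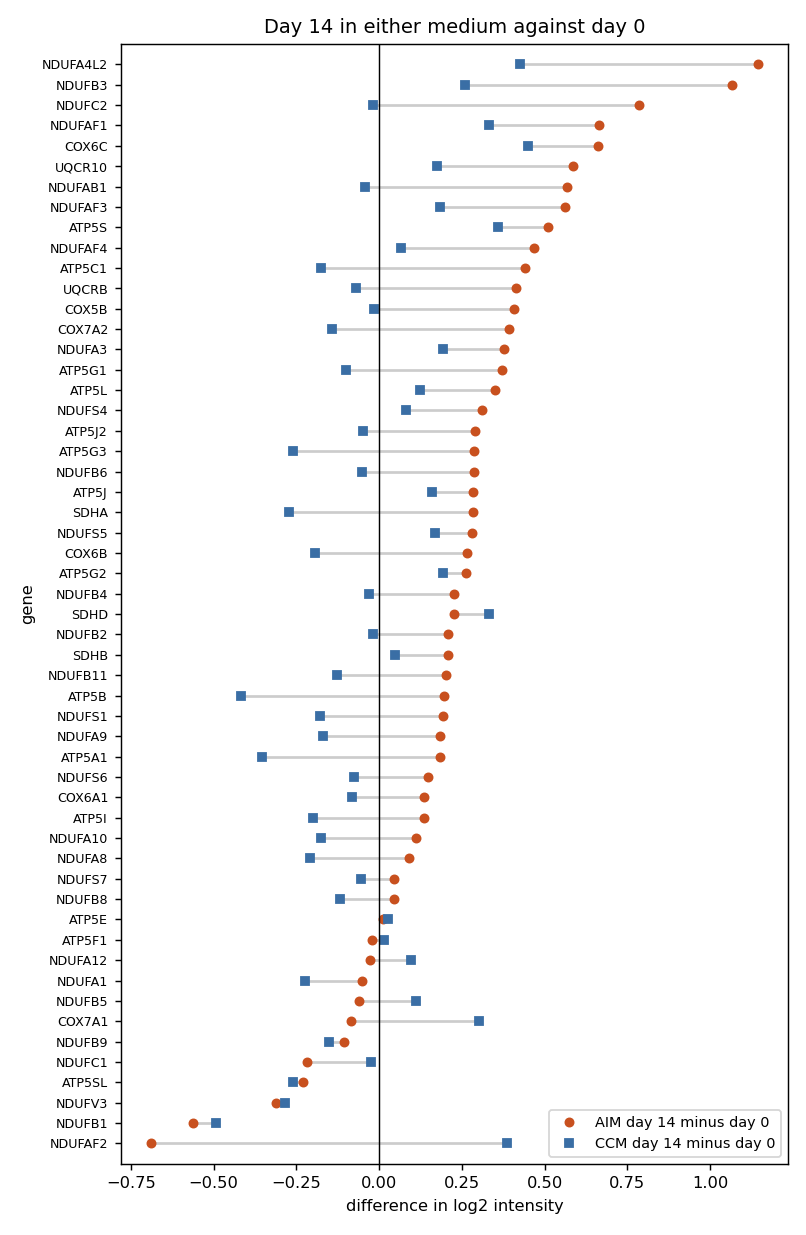
Difference in log2 intensity from day 0 of 54 genes (rows, ordered by the AIM value) on day 14 in AIM (orange circles) and in CCM (blue squares), both against the same 7 day 0 arrays. NDUFB3 and NDUFC2 stood at 1.06 and 0.79 in AIM, and ATP5B and ATP5A1 at -0.42 and -0.35 in CCM.

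Few genes of the chain passed between the breeds. AS was set against DL in 9 comparisons, on day 0 and on each day in each medium. Of the 486 gene values 6 passed, against 2.14% of all tested probe set values. An unadjusted p under 0.05 was found for 71, and the share of all tested probe sets at that limit was not compared. No gene passed on day 0, on AIM day 4 or on any day in CCM. On day 1, 47 of 54 genes were lower in AS in AIM and 46 in CCM, with a median of -0.13 in each. The medians of all tested probe sets were -0.01 and -0.02. On AIM day 4, 41 genes were higher in AS, with a median of 0.09. Such shifts of the whole set were not tested. On AIM day 1, 2 genes passed (1.55% of all tested probe sets). ATP5L, the g subunit of complex V, had 6.18, 6.12, 6.27 and 6.27 on the 4 AS arrays against 6.62, 6.47, 6.78 and 6.69 on the 4 DL arrays, a difference of -0.43 ± 0.10 (adjusted p = 0.00630 in limma). ATP5F1, the b subunit of its outer stalk, had 8.74, 8.77, 8.66 and 8.83 in AS and 9.03, 9.28, 9.22 and 9.12 in DL, a difference of -0.41 ± 0.10 (adjusted p = 0.00791). All AS arrays were below all DL arrays in both. On CCM day 1, where neither gene passed, ATP5L averaged 6.30 in AS and 6.63 in DL, and ATP5F1 8.90 and 9.15.

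On AIM day 7, 3 genes passed between the breeds (6.10%), and on AIM day 14, 1 gene (2.72%). NDUFS6, an accessory subunit of complex I, had 8.40, 8.24 and 8.13 on the 3 AS arrays of day 7 and 8.07, 7.70, 7.83 and 7.62 on the 4 DL arrays, which did not overlap, with a difference of 0.49 ± 0.11 (adjusted p = 0.00334). SDHA had 9.41, 9.43 and 8.94 in AS and 8.93, 8.75, 8.98 and 8.84 in DL, which overlapped, with 0.42 ± 0.11 (adjusted p = 0.00614). The AS value of each rests on 1 FP and 2 FS arrays. The 6 passing values were 2 without AS FS replicate 1 or DL FS replicate 2, 3 without AS FP replicate 2 or DL FP replicate 2, and 2 with all 72 arrays as labelled.

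NDUFA4L2 stood out among the breed differences. It is a paralog of NDUFA4 known in human and mouse cells as a hypoxia-induced protein that lowers complex I activity. On AIM day 7 it had 4.74, 4.41 and 4.64 on the AS arrays, and 7.90 and 7.62 on the DL FP arrays with 5.78 and 5.51 on the DL FS arrays. All DL arrays were above all AS arrays, and the difference, AS minus DL, was -2.09 ± 0.25 (adjusted p = 3.42e-07). On AIM day 14 it had 6.22, 4.79, 6.01 and 5.42 in AS and 7.91, 7.36, 6.72 and 6.31 in DL, which again did not overlap, with -1.47 ± 0.22 (adjusted p = 3.07e-05). Both values passed with all 72 arrays as labelled. On day 4 NDUFA4L2 was lower in AIM than in CCM, with 3.88, 4.55 and 5.06 in AIM and 4.56, 5.26 and 5.69 in CCM, which overlapped, and a difference of -0.67 ± 0.16 (adjusted p = 0.000445). On day 7 the lowest, median and highest values were 4.41, 5.51 and 7.90 in AIM and 5.34, 5.62 and 6.22 in CCM, and the difference of -0.03 ± 0.17 averaged pools from -0.94 to 1.84. On day 14 they were 4.79, 6.26 and 7.91 in AIM and 5.18, 5.64 and 6.12 in CCM, and the difference was 0.72 ± 0.16 (adjusted p = 0.000192), higher in all 4 pools, from 0.13 to 1.90.

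**Figure D5:**
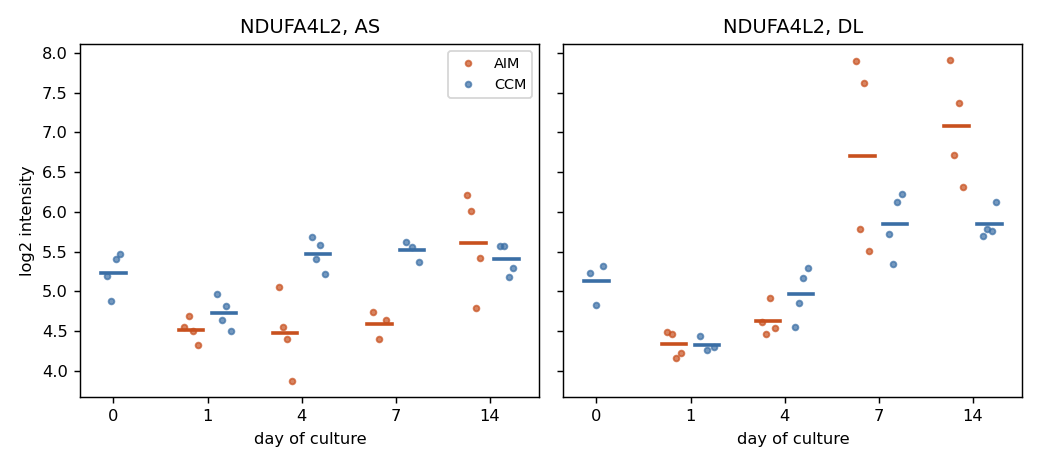
Log2 intensity of NDUFA4L2 on single arrays (points) with the mean (bar) by day of culture in AIM (orange) and CCM (blue), in AS (left) and DL (right). The AIM arrays of day 7 lay between 4.41 and 4.74 in AS and between 5.51 and 7.90 in DL.

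The difference between the breeds in the AIM against CCM change was tested on each day, and NDUFA4L2 on day 7 was the 1 value of 216 that passed, against 0.248% of all tested probe set values. On that day NDUFA4L2 averaged 4.59 in AIM and 5.52 in CCM in AS (n = 3 each), and 6.70 and 5.85 in DL (n = 4 each). Of the 4 pools only DL FP was higher in AIM, with 7.90 and 7.62 against 5.72 and 6.13 in CCM. DL FS had 5.78 and 5.51 against 5.34 and 6.22. The AIM minus CCM change in AS less that in DL was -1.77 ± 0.35 (adjusted p = 0.00451 in limma). On day 14 the same difference was -1.03 ± 0.31 (adjusted p = 0.148). The day 7 call was lost without AS FS replicate 1 or 2, DL FP replicate 1 or 2 or DL FS replicate 1, and with all 72 arrays as labelled, where the value was -1.33. The 216 values come from the same arrays and are not independent, so a count among them cannot show how many genes differed. Of them, 12 had an unadjusted p under 0.05. The share of all tested probe sets at that limit was not compared.

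Between the tissues, no gene passed in limma in any of the 9 comparisons of FP against FS, where 0.264% of all tested probe set values did. The share of all tested probe sets with an unadjusted p under 0.05 was not compared. Of the 486 gene values, 21 had such a p. Values of genes on the same arrays are not independent, so this count cannot show that the tissues did not differ. FP was above FS for 44 of 54 genes on day 0 (median 0.09). It was below FS for 43 on AIM day 1 (median -0.06) and on AIM day 14 (median -0.09). On CCM day 14, 27 were above and 27 below. The largest difference was that of NDUFA4L2 on AIM day 7, at 1.15 ± 0.25 (adjusted p = 0.0164), from 4.74 in AS FP and 7.90 and 7.62 in DL FP, against 4.41 and 4.64 in AS FS and 5.78 and 5.51 in DL FS. Without AS FP replicate 2, 1 value passed. The AIM against CCM change did not pass as different between the tissues for any gene either, against 0.0230%. Of its 216 values, 4 had an unadjusted p under 0.05, and they are not independent either.

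The genes that serve the chain were described from lists of the same kind, by AIM minus CCM on day 14, where 17.1% of all tested probe sets were higher and 21.4% lower. Among 17 genes of electron carriers and of ubiquinone synthesis, 11 were higher and 1 lower, with a median of 0.44. The largest were ETFDH (1.20 ± 0.07), ETFB (1.13 ± 0.07), which pass electrons from fatty acid oxidation to ubiquinone, DHODH (1.09 ± 0.08) of pyrimidine synthesis and PDSS1 (0.84 ± 0.13) of ubiquinone synthesis. Cytochrome c (CYCS) was higher by 0.49 ± 0.10. Of 12 further assembly factors, 8 were higher and none lower (median 0.31), led by COX17 (0.78 ± 0.08), which delivers copper to complex IV, HIGD1A (0.67 ± 0.08), COX10 (0.53 ± 0.09), an enzyme of heme a synthesis, and TMEM126B (0.40 ± 0.08), an assembly factor of complex I. Of 57 genes of the mitochondrial ribosome, 23 were higher and 3 lower (median 0.18), with MRPL34 (1.35 ± 0.08), MRPL50 (0.92 ± 0.09), MRPS6 (0.86 ± 0.10) and MRPL43 (0.74 ± 0.07) at the top and MRPL52 lowest (-0.54 ± 0.07).

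Among 12 mitochondrial carriers, uncoupling proteins, porins and markers of mitochondrial content, 5 were higher and none lower (median 0.21). The ADP/ATP carrier SLC25A5 had 1.37 ± 0.06, UCP3 had 1.02 ± 0.13, TOMM20 of the outer membrane import channel had 0.61 ± 0.09 and citrate synthase (CS) 0.49 ± 0.06. Of 16 regulators of mitochondrial biogenesis, 5 were higher and none lower, and their median was 0.03. These 5 were PPARD (1.72 ± 0.07), PRKAA2 (1.13 ± 0.13), a catalytic subunit of AMP-activated kinase, PPARGC1B (0.82 ± 0.15), a coactivator of mitochondrial genes, TFAM (0.50 ± 0.07), which packs mitochondrial DNA, and the DNA polymerase POLG (0.35 ± 0.07). On day 4, where the shares of all tested probe sets were 16.3% higher and 23.3% lower, the higher and lower genes were 9 and 1 for electron carriers, 4 and 1 for assembly factors, 19 and 6 for the mitochondrial ribosome, 3 and 2 of 12 for carriers and 5 and 2 of 16 for biogenesis. No mitochondrially encoded gene was found by name among the probe sets.

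The probe set named COX7C, whose gene is in doubt, was lower in AIM on every day, unlike the other complex IV genes. The AS arrays of day 14 had 6.39, 6.27, 6.76 and 5.98 in AIM and 8.09, 8.05, 7.65 and 7.64 in CCM, and the DL arrays had 6.43, 6.61, 5.56 and 6.24 in AIM and 8.11, 7.63, 7.87 and 7.81 in CCM. The AIM and CCM arrays did not overlap, and the differences were -1.25 ± 0.18, -1.85 ± 0.17, -0.99 ± 0.19 and -1.57 ± 0.17 on days 1, 4, 7 and 14. This value is not counted as a subunit of the chain.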

How the data were processed

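SMSC cultures in AIM or CCM were measured on 72 arrays. The authors scanned them (GCOS 1.1.1) and deposited log2 intensity values, made with RMA (background correction, normalization and a summary of each probe set) in version 1.3.1.187 of Expression Console, and no value was rescaled here. Gene names are those of the platform, and all 59 symbols are gene symbols in RefSeq. Arrays were left out as stated in the report. Group means (36) were fitted by limma 3.58.1 under R 4.3.3 with eBayes, and the 8 lines of culture, each a replicate of 1 breed and tissue, entered as random block through duplicateCorrelation (statmod 1.5.0, correlation 0.0207). Breeds and tissues weigh equally in each comparison. Tested were 27187 probe sets above the median of the array on at least 8 arrays, without the SD filter of the methods (0.25), which only 23 of the 54 genes pass. P-values were adjusted within each comparison, and 0.01 was the limit. The tests are two-sided, and they and their standard errors (SE) are those of limma. The number of arrays limits the precision. Named genes are, per role and day, the 2 passing genes with the largest difference in each direction, the isoform pairs, up to 3 per direction for breeds and tissues, all passing genes where these were 5 or fewer, and up to 4 per further list, and others were named after their values were seen. The members and lists were chosen with earlier results of these data known. The fit was tested on simulated data. Python 3.11.15, pandas 2.3.3 and numpy 2.4.6 made the tables. Alternatives varied the filter, scaling, block, variance trend, arrays and probe sets.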

Additional observations from a re-analysis of the deposited data

Results flagged for a closer look

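The change of the AIM minus CCM difference between day 1 and day 4 passed for 11 genes, with values of 0.68 for ATP5C1, 0.52 for SDHA, 0.45 for ATP5B, 0.42 for ATP5A1, 0.41 for ATP5G3, 0.39 for NDUFC2, 0.37 for NDUFAB1, 0.36 for ATP5L, 0.35 for NDUFS6, 0.30 for NDUFA9 and -0.39 for ATP5SL. The AIM against CCM change of NDUFA4L2 on day 7 differed between AS and DL by -1.77.

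Of 63 groups of 7 or 8 arrays looked at, 2 had an array far from the others, and chance alone gives about 1 in 20. One ATP5B array in CCM on day 14 was at 10.6, with the next at 10.4, and one NDUFAF2 array in CCM on day 14 was at 4.80, with the next at 5.28.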

How the results depend on the processing

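Of the counts and medians recomputed under the alternatives, 369 stayed close to the reported value and 60 did not, and of the values of single genes 1104 stayed on their side of the threshold, 160 no longer passed and 0 changed direction. With the SD filter added, 23 genes were tested, and the median differences were -0.0017, 0.2761 and 0.4718 on days 1, 4 and 14, with 12, 14 and 16 genes higher in AIM on days 4, 7 and 14, 2 lower on day 7, 12, 11 and 17 passing in AIM against day 0 on days 4, 7 and 14, 3 in CCM on day 7, 3 between breeds and 7 for day 4 minus day 1. With all 72 arrays as labelled, the day 1 median was 0.0596, 9 genes were higher in AIM on day 7, 6 and 4 passed in CCM against day 0 on days 1 and 4, 2 between breeds, 0 for the breed difference of the change and 4 for day 4 minus day 1. With an intensity trend in eBayes, 5 genes were lower in AIM on day 1 and 2 on day 7, and 11 passed in CCM on day 4. Averaging all probe sets of a gene left 1 lower on day 14 and 2 on day 7, no filter left 3 higher on day 1 and 3 between breeds, and quantile normalization gave a day 1 median of 0.0714, 10 higher on day 1 and 2 lower on day 7. Leaving out each culture line in turn gave 2 to 4 genes higher on day 1 and 1 to 2 lower on day 7, 11 to 20, 4 to 9, 4 to 10 and 7 to 11 passing in CCM on days 1, 4, 7 and 14, 2 to 4 between breeds, 0 to 1 between tissues, 0 to 1 for the breed difference of the change and 4 to 10 for day 4 minus day 1. Comparisons that need day 7 of AS FP, day 0 of DL FP or CCM day 1 of DL FS could not be fitted without replicate 1 of that pool. Deviations of same-numbered arrays of a pool had a median correlation of 0.01 to 0.06 between groups, and 13 of 36 pairs of AS FS were over 0.1. This check compares groups within a pool. It cannot show a difference that the pools share on 1 day, such as that between the day 0 medians of the replicates given above. Without the replicate block 5, 19, 26 and 31 genes were higher in AIM on days 1, 4, 7 and 14. With the block as a fixed term they were 6, 19, 26 and 33, and no other count changed by over 1.5 times. The cause of these shifts was not tested.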
